A study of Homo sapiens with 4 samples.

Results

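Eph receptors and the ephrins that bind them were followed in ES2 ovarian cancer cells exposed to liquiritigenin (Liq) or to vehicle. The genes were 7 receptors (EPHA2, EPHA4, EPHA5, EPHA7, EPHB2, EPHB3 and EPHB4) and 3 ephrins (EFNA1, EFNB1 and EFNB2), found by symbol among the 23228 genes of the count tables. All 10 were found. They belong to a family of 22 genes, and the other 12 are given beside them. The list was chosen from earlier results of these same libraries, with the comparison of Liq against vehicle already known. What these 10 genes did in that comparison is therefore given as a description, without p-values.

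ES2 is an established human ovarian cancer line, and Liq is a plant flavanone that the study used as an agonist of estrogen receptor beta. Total RNA was sequenced after 24 h with vehicle or with 100 μM Liq, the dose named in the methods, with 2 samples in each group. Both groups were kept in phenol red-free medium with 5% charcoal-treated serum, so the vehicle samples also lacked most serum steroids. A single line was used, and the labels do not say whether the 2 samples of a group were separate cultures, so the spread between them may be technical.

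Eph receptors are the largest group of receptor tyrosine kinases. They are activated when they touch ephrins on the surface of a neighbouring cell. Ephrin-A proteins are held in the membrane by a lipid anchor and mostly bind EphA receptors. Ephrin-B proteins span the membrane, mostly bind EphB receptors and can themselves signal into the cell that carries them. Through small GTPases and the actin cytoskeleton, contact between the partners controls cell repulsion, adhesion and migration. In carcinomas EphA2 is known for high levels and for promoting migration when no ligand is bound.

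Between 34573053 and 48933893 reads per sample were counted on genes. At this depth 3 counts, the floor used here for what can be told from 0, corresponded to 0.0598 to 0.0844 CPM (counts scaled to library size after TMM normalization). Intervals and floors given for counts cover counting error only. KRT7, KRT8, KRT18, VIM, FN1, SPARC and CDH2 were expressed, whereas the epithelial markers CDH1 and EPCAM had 0 to 3 counts per sample and the ovarian carcinoma marker MUC16 had 0 or 1. Of the 5 epithelial and ovarian carcinoma markers that could be tested, PAX8 and WT1 were called lower with Liq (log2 fold changes -1.34 and -0.68), while KRT7 was higher and KRT18 lower by less than 1.5-fold (0.51 and -0.24). The CPM summed over that marker list was 499 and 459 with vehicle and 577 and 532 with Liq. These markers moved in the same comparison as the Eph genes, and their part in the results was not tested. Of 9 markers of leukocytes, endothelium and erythroid cells, 8 had at most 11 counts in any sample. The exception was the endothelial cadherin CDH5, whose mean CPM was 51.8 ± 1.6 with vehicle and 46.4 ± 2.5 with Liq (SD, n = 2). The estrogen receptor beta gene ESR2 itself had 4 and 7 counts in vehicle and 5 and 14 in Liq, and ESR1 had 17 to 34 counts per sample.

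The listed receptors EPHA2, EPHA4, EPHB2 and EPHB4 and the ephrins EFNB1 and EFNB2 were expressed, while EPHA5 was scarce and EPHA7, EPHB3 and EFNA1 were close to the floor. The receptor EPHA2 (chromosome 1 from 16450832 to 16482564, GRCh37, minus strand) was the most abundant, with 15758 and 13620 counts in vehicle and 11888 and 15441 in Liq. To compare genes with each other, CPM was divided by the length of the gene's annotated exons in kb. On this scale EPHA2 had a level of 90.2 ± 3.3 CPM per kb in vehicle, followed by EPHA4 at 14.4 ± 0.8, EFNB1 at 10.3 ± 0.7, EPHB4 at 7.84 ± 0.37, EPHB2 at 7.68 ± 0.40 and EFNB2 at 2.93 ± 0.16 (SD, n = 2). The rest lay far lower, at 0.127 ± 0.041 for EPHA5, 0.0707 ± 0.0047 for EFNA1, 0.0341 ± 0.0102 for EPHB3 and 0.0037 ± 0.0052 for EPHA7. Among neighbours in this order, only EPHB4 and EPHB2 overlapped between the 2 vehicle samples. Over all 4 samples, neighbours from EPHA4 to EPHB2 and the pair of EPHA5 and EFNA1 overlapped as well, so their order holds for vehicle only.

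Among all 58 receptor tyrosine kinase genes, EPHA2 had the second highest level per kb in each of the 4 samples, behind AXL. EPHA4 stood 8th and 7th with vehicle and 12th in both Liq samples. EPHB4 went the other way, from 11th in both vehicle samples to 8th in both Liq samples, and EPHB2 stood 12th and then 11th. These ranks describe 4 libraries and were not tested. They rest on annotated lengths, and with the longest transcript in place of all exons EPHA2 remained second in each sample, while EPHA4 ranged from 8th to 13th.

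**Figure D1:**
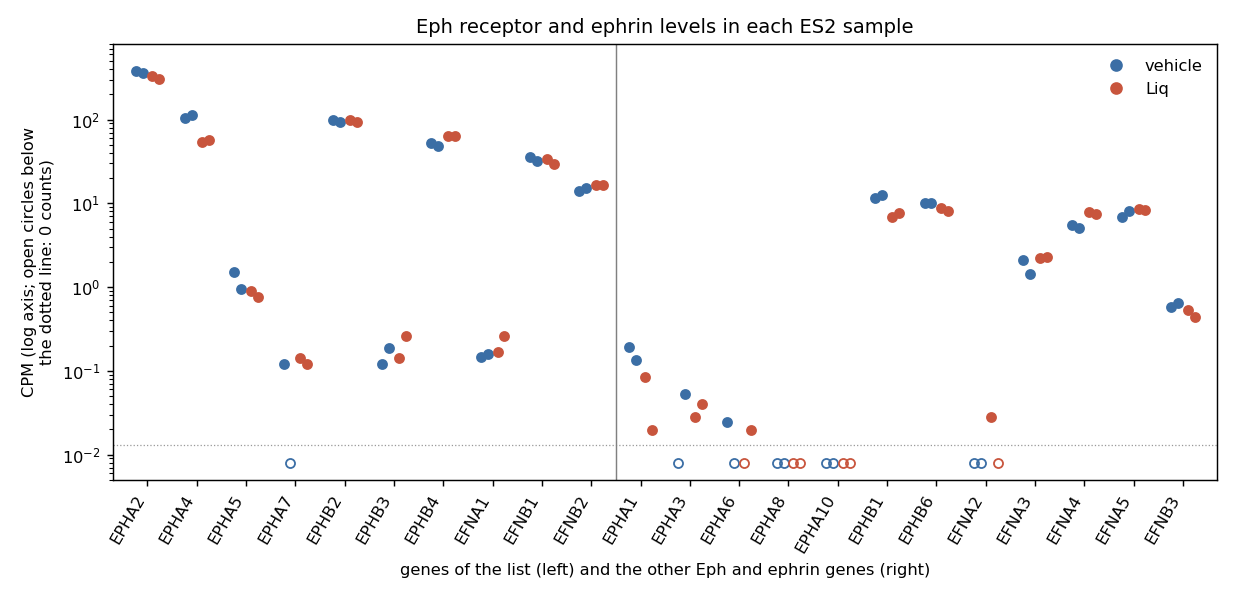
CPM of the 10 listed genes (left) and the 12 other family genes (right) on a log axis, with 1 point per sample, blue for vehicle and red for Liq; open circles under the dotted line stand for 0 counts. EPHA2 lies between 308 and 383 CPM in all samples, and the red points of EPHA4 and EPHB1 lie below their blue points.

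Whether Liq moved these genes was examined with edgeR's quasi-likelihood test across the 13546 genes that passed the filter on low counts. A gene was called at a change of at least 1.5-fold with a Benjamini-Hochberg adjusted p-value under 0.05. Of the 10 listed genes 7 could be tested. EPHA7, EPHB3 and EFNA1 did not reach the filter, and no listed gene passed it through 1 group alone. Of the 7, 1 was called, EPHA4, and it was lower with Liq. Of all tested genes 6.45% were called and 2.16% were called in the downward direction. The split between 581 higher and 293 lower depended on the scaling: offsets fitted by loess over the expression level gave 354 higher and 394 lower. At an adjusted p-value under 0.05 without regard to size there were 3 of 7 (EPHA4, EPHA2 and EPHB4), where 24.0% of all genes passed. The groups did not overlap in 5 of 7, against 61.7% of all genes. The median log2 fold change was -0.10 over the 7 genes and 0.01 over all tested genes. Nothing is read from these shares, because the list was drawn up knowing the comparison. In bulk RNA, fewer cells that express a gene and less of its RNA in each cell cannot be told apart.

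EPHA4, a receptor that binds both ephrin-A and ephrin-B ligands and is best known for axon repulsion, changed most. It lies on chromosome 2 from 222282747 to 222438922 (GRCh37, minus strand). It was at 104 and 113 CPM with vehicle but at 53.6 and 56.6 CPM with Liq, from 4280, 4236, 1907 and 2843 counts. Both Liq samples thus held about the same level, well under either vehicle sample. The log2 fold change was -0.98 (SE 0.08, 95% interval -1.14 to -0.81), a fold of 0.508. Of the 2303 tested genes with at least as high a mean CPM in vehicle, 46 were called lower. A log2 fold change this low or lower was seen in 9 of the 2303, EPHA4 included. The list was drawn up knowing this comparison, and the cut is EPHA4's own vehicle level. Its place among these genes is therefore description and no support. An antisense long noncoding RNA of the annotation shares 353 bases of exon with EPHA4, and since the sources used here do not say whether HTSeq used strand, reads from it cannot be told apart from those of EPHA4. The same holds for 535 exon bases that EPHA5 shares with EPHA5-AS1 and 1822 that EFNB2 shares with a long noncoding RNA. EPHB4 shares 69 exon bases with SLC12A9, which is itself a counted gene, and how reads there were assigned is not known.

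EPHA5, a close relative of EPHA4 that is mainly neuronal, was scarce. Its counts were 63 and 36 in vehicle and 32 and 38 in Liq, which is 1.53 and 0.962 CPM against 0.900 and 0.757 CPM. The groups did not overlap, but the 2 vehicle samples lay further apart than the gap between the groups. The log2 fold change was -0.61 with an SE of 0.28 and was not called. It was -0.23 without vehicle replicate 1 and -0.90 without vehicle replicate 2, so it rests on which vehicle sample is used. EPHA7, on chromosome 6 from 93949738 to 94129405, had 5 and 0 counts in vehicle and 5 and 6 in Liq. Its pooled ratio of Liq to vehicle was 2.02 with an exact interval of 0.646 to 7.40, so that no difference could be detected at this depth.

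EPHA2 was lower with Liq by a small margin. Its CPM was 383 and 364 in vehicle and 334 and 308 in Liq, and the groups did not overlap. The log2 fold change was -0.22 (SE 0.07, 95% interval -0.36 to -0.08), a fold of 0.859. This is the difference that moved in and out of the adjusted threshold most. It passed in 7 of 11 alternative fits and did not pass with offsets along the expression level, without either vehicle replicate or without Liq replicate 2, with log2 fold changes from -0.28 to -0.14.

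Of the listed EphB receptors none was called. EPHB4, the receptor for ephrin-B2 that is known from the division between arteries and veins, lies on chromosome 7 from 100400187 to 100425145. It had 52.1 and 48.7 CPM in vehicle and 64.5 CPM in each of the Liq samples. Both were above either vehicle sample, and the log2 fold change was 0.36 (SE 0.08, 95% interval 0.19 to 0.52), under 1.5-fold. The value lost its adjusted threshold without vehicle replicate 2, when it was 0.31. EPHB2, which takes part in epithelial cell sorting and in synapse formation, had 99.7 and 92.6 CPM in vehicle and 98.5 and 94.4 CPM in Liq. These values interleaved. The log2 fold change was 0.00 with a 95% interval of -0.15 to 0.16, which lies within 1.5-fold in either direction. The interval rests on the spread between 2 samples of a group, which may be technical, so a change between separate cultures is not bounded by it. EPHB3 had 5 and 7 counts in vehicle and 5 and 13 in Liq, a pooled ratio of 1.37 with an exact interval of 0.626 to 3.13.

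The ephrins showed no called change. EFNB1 (X chromosome, from 68048864 to 68062003), the ephrin-B whose loss causes craniofrontonasal syndrome, had 35.8 and 32.3 CPM in vehicle and 33.9 and 29.7 CPM in Liq. The groups overlapped, and the log2 fold change was -0.10 with a 95% interval of -0.29 to 0.09. EFNB2, the main ligand of EPHB4, had 14.1 and 15.2 CPM in vehicle and 16.6 CPM in each of the Liq samples. Both Liq samples were higher, but the log2 fold change of 0.18 had an interval of -0.03 to 0.39 and did not pass the threshold. EFNA1, the usual ligand of EPHA2, had 6 counts in each vehicle sample and 6 and 13 in Liq. Its pooled level was 0.153 CPM in vehicle (exact Poisson interval 0.0789 to 0.267) and 0.222 CPM in Liq (0.133 to 0.346). These cells thus held abundant EPHA2 RNA beside almost no EFNA1 RNA in both conditions. Ephrin-A RNA was not absent, since ephrin-A genes outside the list were expressed. In vehicle and Liq, EFNA4 had 4.19 and 6.11 CPM per kb, EFNA5 1.32 and 1.46, and EFNA3 0.908 and 1.17, whereas EFNA2 was at the floor.

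**Figure D2:**
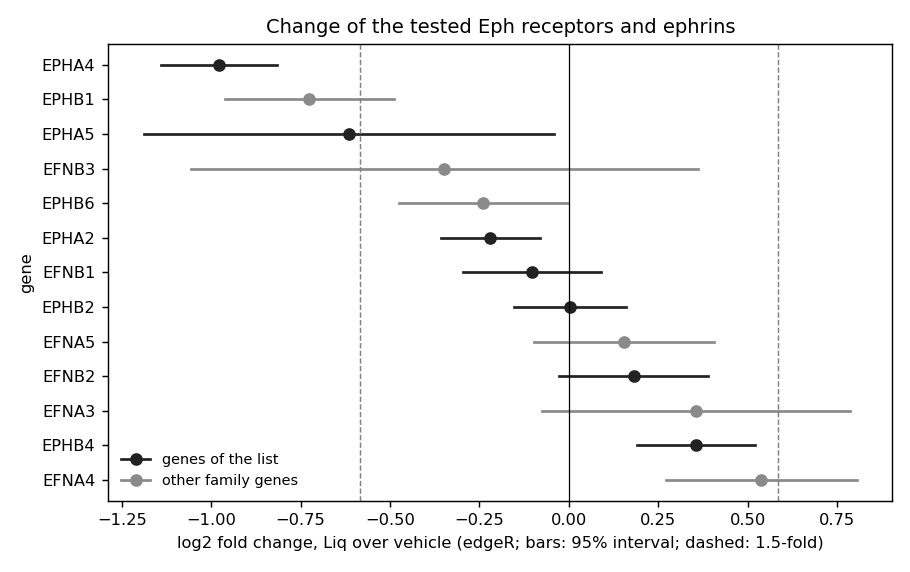
Log2 fold change of Liq over vehicle for the 13 tested family genes (points) with 95% intervals (bars) from edgeR, black for the listed genes and grey for the others; dashed lines mark 1.5-fold. EPHA4 (-0.98) and EPHB1 (-0.73) lie beyond the lower line, and the interval of EPHB2 spans 0.

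The make-up of the receptor RNA differed between the groups in the shares of EPHA4, EPHB4 and EPHB2. Of the summed level per kb of the 7 listed receptors, EPHA2 took 75.5% and 74.5% with vehicle and 76.3% and 74.7% with Liq. The share of EPHA4 was 11.2% and 12.7% in vehicle and 6.71% and 7.54% in Liq. The share of EPHB4 was 6.61% and 6.42% in vehicle and 9.47% and 10.1% in Liq, so that it exceeded EPHA4 in both Liq samples and in neither vehicle sample. EPHB2 took 6.50% and 6.27% in vehicle and 7.43% and 7.58% in Liq, without overlap, although its own log2 fold change was 0.00. Shares are bound to sum to 100% and are given without a test.

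The receptors together far outweighed the listed ephrins. Their sum was 123 and 118 CPM per kb in vehicle and 106 and 99.5 CPM per kb in Liq, and the ephrins summed to 13.7 and 12.9 CPM per kb in vehicle and 13.7 and 12.4 CPM per kb in Liq. The ratio of receptors to ephrins was 9.03 ± 0.14 in vehicle and 7.87 ± 0.19 in Liq (SD, n = 2). This ratio leaves out EFNA4, which at 4.19 ± 0.25 CPM per kb in vehicle and 6.11 ± 0.31 in Liq lay above the listed EFNB2, and with all 14 receptors and 8 ephrins of the family, a choice made after seeing the data, it was 6.24 ± 0.13 in vehicle and 4.81 ± 0.06 in Liq. The smallest two-sided p that exact permutation of 2 and 2 samples allows is 0.333, and no p is given. Among the ephrins EFNB1 took 79.0% and 75.9% in vehicle and 75.1% and 72.4% in Liq, and EFNB2 nearly all of the rest.

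**Figure D3:**
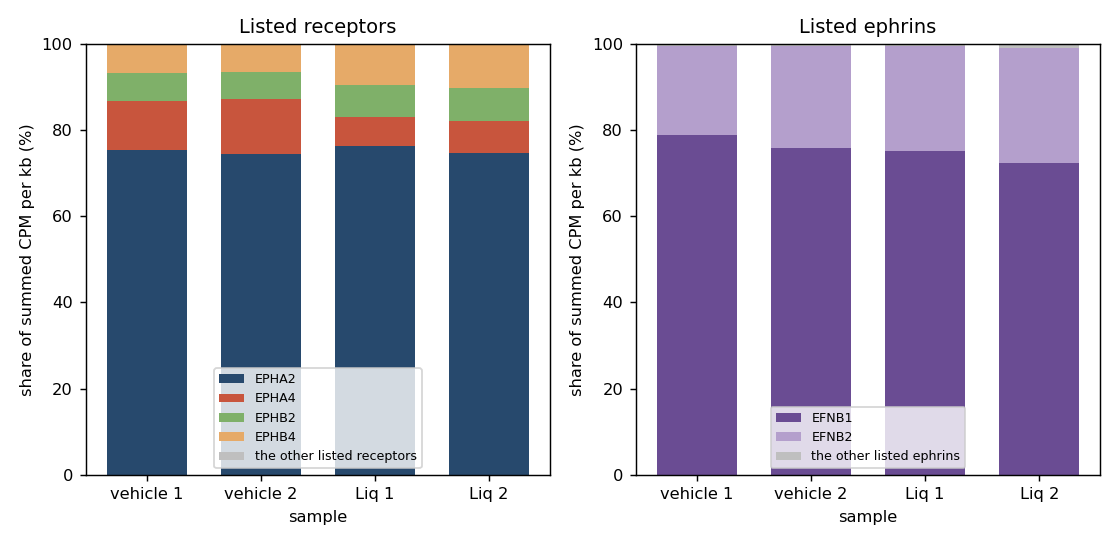
Shares of the summed CPM per kb of the listed receptors (left) and listed ephrins (right) in each sample, as stacked bars from 0 to 100%. The EPHA2 band is 74.5% to 76.3% in all samples, and the EPHA4 band is narrower in both Liq samples (6.71% and 7.54%) than in both vehicle samples (11.2% and 12.7%).

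The 12 family genes outside the list were measured in the same fit, and 6 of them could be tested. EPHB1, which like EPHB2 binds ephrin-B ligands, lies on chromosome 3 from 134514102 to 134979309 and was the 1 called. It had 482 and 465 counts in vehicle and 245 and 384 in Liq, which is 11.7 and 12.4 CPM against 6.89 and 7.65 CPM. Both Liq samples were lower, and the log2 fold change was -0.73 (SE 0.12, 95% interval -0.96 to -0.49). EPHB1 was called in all 11 alternative fits, as EPHA4 was. It shares 346 bases of exon with a long noncoding RNA on the same strand, which is not among the counted genes. Reads from that RNA cannot be told apart from those of EPHB1, whatever the strand setting.

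Of the other 5, the ephrin EFNA4 came closest. It had 5.50 and 5.05 CPM in vehicle and 7.96 and 7.41 CPM in Liq, a log2 fold change of 0.54 (SE 0.13) just under 1.5-fold, and was called in 2 of 11 alternative fits. EFNA4 shares exon with a read-through transcript into EFNA3, so the reads of this pair could be split between genes. EPHB6, a receptor with an inactive kinase domain, was lower in both Liq samples (8.83 and 8.17 CPM) than in either vehicle sample, with a log2 fold change of -0.24 (SE 0.11) that was not called. EFNA3 had a log2 fold change of 0.35, EFNA5 of 0.15 and EFNB3 of -0.35, none of them called. The remaining 6 genes were at or near the floor. EPHA8 and EPHA10 had 0 counts in every sample, EFNA2 had 1 count in all, EPHA6 had 2 and EPHA3 had 5. EPHA1 had 8 and 5 counts in vehicle and 3 and 1 in Liq, a pooled ratio of 0.282 with an exact interval of 0.0670 to 0.912.

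To show the sequence next to the genes that passed the adjusted threshold, the 250 bases before a RefSeq start are printed for EPHA4, EPHA2 and EPHB4. They were taken from the GRCh38.p14 promoter table and placed on GRCh37 by exact match, 1 match each, all on the minus strand and written 5′ to 3′. Capitals mark matches to the motifs named below. The windows are chr2:222438923-222439172 for EPHA4, where it overlaps exons of an antisense long noncoding RNA, chr1:16482565-16482814 for EPHA2 and chr7:100425146-100425395 for EPHB4.
EPHA4: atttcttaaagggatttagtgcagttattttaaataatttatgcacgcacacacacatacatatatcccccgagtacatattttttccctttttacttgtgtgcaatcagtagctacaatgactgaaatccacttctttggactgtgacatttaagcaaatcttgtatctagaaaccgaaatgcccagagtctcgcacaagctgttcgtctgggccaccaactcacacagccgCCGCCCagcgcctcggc
EPHA2: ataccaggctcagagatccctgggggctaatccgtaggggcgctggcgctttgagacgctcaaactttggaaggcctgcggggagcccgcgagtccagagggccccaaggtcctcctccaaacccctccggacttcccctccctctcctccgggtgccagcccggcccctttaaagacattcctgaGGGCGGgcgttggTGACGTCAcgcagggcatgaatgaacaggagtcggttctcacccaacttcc
EPHB4: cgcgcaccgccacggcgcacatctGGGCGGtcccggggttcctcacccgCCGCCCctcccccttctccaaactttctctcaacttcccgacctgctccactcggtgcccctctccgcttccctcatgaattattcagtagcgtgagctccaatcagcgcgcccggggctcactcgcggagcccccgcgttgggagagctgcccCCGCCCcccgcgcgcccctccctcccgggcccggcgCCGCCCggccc

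The printed windows hold 43.2% G and C for EPHA4, 63.2% for EPHA2 and 72.8% for EPHB4. The motifs were searched on both strands in the 15 windows of the 10 listed genes and in all 35116 windows of the table. The GC box GGGCGG was found 1 time before EPHA4, 1 time before EPHA2 and 4 times before EPHB4, and 42.6% of all windows hold it. EPHA4 has another start further downstream, and the window before it holds 5 GC boxes and 78.0% G and C, more than any of the printed windows. The cyclic AMP element TGACGTCA was found before EPHA2 alone among the listed genes, and 1.65% of all windows hold it. The AP-1 element TGANTCA (6.57% of all windows), the estrogen response half-site AGGTCA (12.1%) and the NF-κB site (9.96%) were in none of the 15 windows. A match is a description of the letters, and binding was not measured.

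Genes that carry Eph and ephrin signals inside the cell were taken as 83 genes in 5 groups, a list drawn up with earlier results of these libraries known and so no independent evidence. Of these, 74 could be tested and 1 was called (1.35%, against 6.45% of all tested genes), also with DESeq2's Wald test. Without regard to size, 19 had an adjusted p-value under 0.05 (25.7%, against 24.0% of all tested genes), 6 higher and 13 lower, and the median log2 fold change was -0.03. The called gene was CHN1, a GTPase-activating protein for Rac that is known to act downstream of EphA4 in motor circuits (chromosome 2 from 175663537 to 175870109). It fell from 19.7 and 21.6 CPM in vehicle to 10.8 and 14.2 CPM in Liq, which is -0.71 ± 0.11 (SE) on the log2 scale, with edgeR's adjusted p = 4.641e-05. Both Liq samples were lower, but they differed from each other, and without Liq replicate 1 the value was -0.54 and under 1.5-fold. CHN1 and the genes named from the lists below were picked by their p-value in this same comparison. The p-values printed for them are therefore description and no independent support.

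Of all 13546 tested genes, 4890 had an unadjusted edgeR p-value under 0.05 and 24.0% an adjusted one. Among 28 tested kinases, adaptors and phosphatases that bind Eph receptors, 0 were called by edgeR at the threshold for a call. Of these 28 genes, 7 had an unadjusted p-value under 0.05 and 5 an adjusted one, 1 higher and 4 lower. The smallest p-value belonged to the adaptor GRB10, with 85.2 and 83.3 CPM in vehicle and 109 CPM in both Liq samples (log2 fold change 0.37, adjusted p = 0.0005808 from edgeR). Of 15 genes grouped as small GTPases, actin effectors and their partners 0 were called. At an adjusted p-value under 0.05, 1 was higher and 5 were lower, and 8 passed unadjusted. SDC2 was the one that was higher (log2 fold change 0.54, adjusted p = 0.0005008 from edgeR). It is a syndecan that EphB2 phosphorylates in dendritic spines, and not itself a GTPase or actin effector.

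For the next 2 lists too, the share over all tested genes is 24.0% at the adjusted threshold and 4890 of 13546 at the unadjusted one. Of the 8 genes for ectodomain shedding and gamma-secretase, which cut Eph receptors and ephrins, 0 were called. At the adjusted threshold 2 were higher, and 3 passed the unadjusted threshold. The sheddase ADAM17 had 42.0 and 42.2 CPM in vehicle and 49.2 and 53.6 CPM in Liq (log2 fold change 0.29, adjusted p = 0.01306 from edgeR), and this did not pass without either vehicle replicate or without Liq replicate 2. Of 12 tested partners of ephrin-B in reverse signalling 0 were called, and 5 passed both the adjusted and the unadjusted threshold, 2 higher and 3 lower. The smallest p-value was that of RGS3, a regulator of G-protein signalling that binds the tail of ephrin-B (log2 fold change -0.34, adjusted p = 0.001169 from edgeR), which did not pass without vehicle replicate 1. Of the 11 tested exchange factors and GTPase-activating proteins, 10 besides CHN1 were not called.

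Other families of surface receptors are given for comparison, beside the 6.45% of all tested genes that were called, 581 higher and 293 lower. Of 27 tested receptor tyrosine kinases outside the Eph family 6 were called, 4 higher and 2 lower, and the median log2 fold change was 0.19 against -0.10 for the listed Eph and ephrin genes. ERBB2 was higher, at 1.34 and 1.28 CPM in vehicle and 3.60 and 3.23 CPM in Liq (log2 fold change 1.37, adjusted p = 8.064e-06 from edgeR). PDGFRB and FGFR4 were higher too (log2 fold changes 0.97 and 1.41), and KDR and CSF1R were lower (-0.79 and -1.34). Of these 5, the calls of KDR, FGFR4 and CSF1R were lost with the DESeq2 Wald test and on leaving out 1 vehicle sample.

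Semaphorins, plexins, Slits, Robos and netrins share with the Eph family a role in guiding cells and axons. Of 40 tested genes 7 were called, 5 higher and 2 lower, with a median log2 fold change of 0.16. SLIT3, a secreted Robo ligand, was higher, with 74.1 CPM in each vehicle sample and 143 and 133 CPM in Liq (log2 fold change 0.90, adjusted p = 1.396e-09 from edgeR). SEMA4A, SEMA3B and UNC5C were higher (1.56, 1.00 and 1.51) and ROBO4 was lower (-0.77). The call of UNC5C, which had 9 to 42 counts per sample, was lost with the DESeq2 Wald test, without vehicle replicate 1 and without Liq replicate 2. The differences between these families and the Eph family were not tested. The medians are given side by side from the TMM fit alone, and how they depend on the scaling was not tested.

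**Figure D4:**
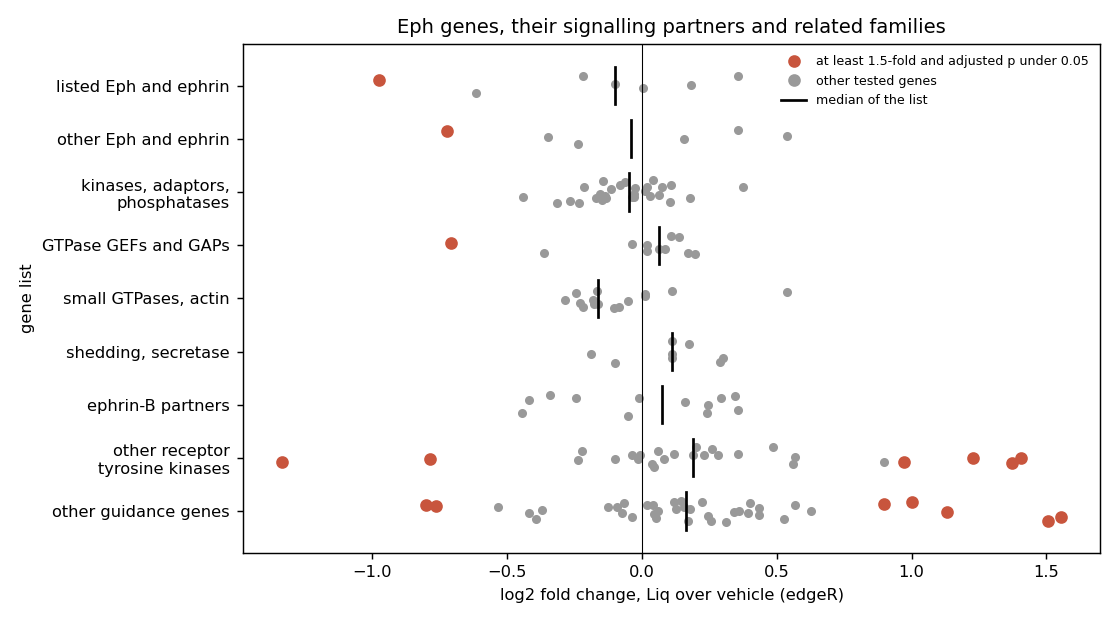
Log2 fold change of Liq over vehicle for the tested genes of each list (1 point per gene, red where called, black bar at the median). EPHA4 (-0.98), EPHB1 (-0.73) and CHN1 (-0.71) are the red points of the 7 upper lists, and the 2 lower lists hold 13 red points, 9 of them to the right of 0.

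**Figure D5:**
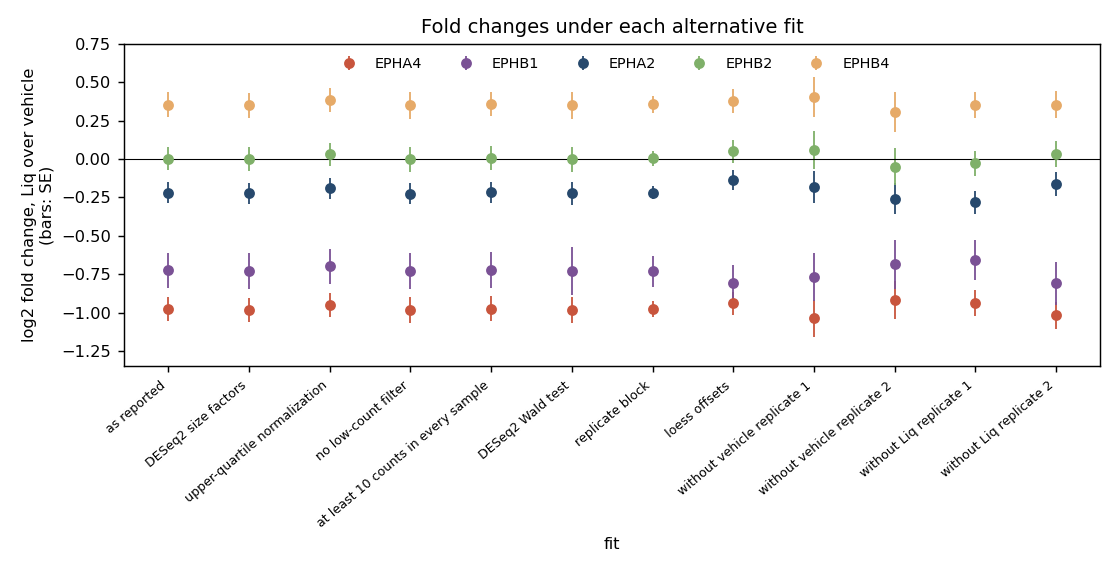
Log2 fold change with SE (bars) of 5 family genes as reported and under each of the 11 alternative fits. EPHA4 stays between -1.04 and -0.92 and EPHB1 between -0.81 and -0.66, while EPHA2, EPHB2 and EPHB4 stay nearer to 0.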

How the data were processed

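RNA-seq of ES2 cells was analysed from tables of raw counts per gene, 1 per sample. Per the labels and the processing notes of the submitters, 100 bp single-end reads of TruSeq libraries were converted with bcl2fastq 2.17.1.14, aligned to hg19 with TopHat2 2.0.8b and counted with HTSeq. The authors deposited these counts unnormalized and unfiltered. The annotation release and strand setting are not given in the sources used here. The tally lines that name no gene were left out. They held 44.4% to 45.9% of the summed counts of a sample, of which the line for alignments that were not unique made up 35.6% to 36.2% of the sum. Whether that line counts a read more than 1 time is not given, so these are not shares of reads.

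Gene counts were modelled with edgeR 4.0.16 in R 4.3.3 (filterByExpr with a minimum count of 10 and total of 15, TMM, glmQLFit and glmQLFTest, all 4 samples, no covariate), with Benjamini-Hochberg adjustment over 13546 genes. The SE is the log2 fold change divided by the square root of F. The reported edgeR fit, its versions with the replicate block and with loess offsets, and DESeq2 were run on simulated counts. These had 200 changed genes and the same dispersion for every gene. The other alternative fits, among them those without 1 sample, were not run on simulated counts. Untested genes were given with exact Poisson and binomial intervals. Positions and lengths are those of GENCODE 44 lifted to GRCh37, and upstream sequences those of RefSeq, where all 10 genes had a window. Genes named outside the family were the called genes with the smallest p-values in each list, up to 5, or the 1 with the smallest p-value. The members and lists were chosen with earlier results of these data known.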

Additional observations from a re-analysis of the deposited data

How the results depend on the processing

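EPHA4 and EPHB1 were called in each of the 11 alternative fits. The number of listed genes called, 1 as reported, was 2 with loess offsets along the expression level (span 0.3) and with an unadjusted p-value, EPHA5 being the second, 0 at a fold of at least 2 and 3 without a fold threshold. Without 1 sample it was always 1. Over all genes 874 were called, 748 with loess offsets and 1064 with an unadjusted p-value at the same fold. The number was 567 with the DESeq2 Wald test (version 1.42.0), 328 at a fold of at least 2 and 3245 without a fold threshold. The DESeq2 test left 2 other receptor tyrosine kinases and 4 guidance genes called. Of the Eph signalling genes 2 were called with loess offsets, and 0 to 2 on leaving out 1 sample (0 without Liq replicate 1, when CHN1 was under 1.5-fold, and 2 without vehicle replicate 1). On leaving out 1 sample, 1 to 2 of the unlisted Eph and ephrin genes, 3 to 7 of the other receptor tyrosine kinases and 4 to 8 of the guidance genes were called, the fewest of the last 2 without vehicle replicate 1. In such a fit the lone sample is assumed to vary like the other group. The log2 fold change of EPHB2, 0.00382 as reported, changed sign to -0.000517 with DESeq2 size factors, -0.000509 with the DESeq2 test and -0.00157 without the low-count filter, and ranged from -0.0493 to 0.0579 on leaving out 1 sample, all within its SE of 0.08.

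With the replicate number as a block, EPHA4 had a log2 fold change of -0.98 and 1 listed gene was called. The numbers 1 and 2 are shared by the groups only as names, and deviations of samples with the same number had a correlation of 0.048, so the block was not used as the reported fit. With the longest transcript as gene length, the ratio of receptors to ephrins was 9.79 and the share of EPHA2 72.5%. Of 306 values of single genes under an alternative, 287 kept their sign and their call or lack of one, 10 lost a call, 4 gained one and 5 changed sign. Read by the adjusted p-value alone, 19 of the 306 moved above 0.05 (EPHA2 in 4 fits, ADAM17 and UNC5C in 3 each, KDR, FGFR4 and CSF1R in 2 each, and EPHB4, EFNA4 and RGS3 in 1 each) and 2 moved below it (EPHA5 and EPHB6, with loess offsets). FGFR4 and UNC5C had no value with at least 10 counts required in every sample. No normalization moved the median of all genes by over 0.1 on the log2 scale. Each is built to keep the bulk of genes unchanged, so this median cannot show whether the scaling mattered. With loess offsets the log2 fold change of EPHA5 went from -0.61 to -0.83 and that of ERBB2 from 1.37 to 1.19. That of the abundant EPHA2 went from -0.22 to -0.14. Depth limits the statements on EPHA7, EPHB3, EFNA1 and the other genes near the floor.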
